A study of Mus musculus with 16 samples.

Results

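The 10 genes described here encode oxygen-dependent enzymes that remove methyl groups from histones or oxidise bases and proteins: Kdm3a, Kdm4b, Kdm4c, Kdm2b, Kdm5b, Kdm6b, Kdm6a, Jmjd6, Tet2 and Tet3. They were taken by symbol from a fixed list of names grouped as hypoxia-responsive histone demethylases, and all 10 were found among the 49585 gene identifiers of the count tables. RNA was sequenced from neutrophils sorted by flow cytometry from the bones of C57BL/6 mice aged 8 to 12 weeks. P2KO mice carried Vav:cre-PHD2f/f, in which a Cre recombinase active in blood-forming cells is directed at the oxygen sensor PHD2 (gene Egln1), and P2WT were their wild type controls. P2H2KO mice carried Vav:cre-PHD2/HIF2ff/ff, directed at PHD2 and at HIF2α (gene Epas1) together, and P2H2WT were the wild type controls of that line. Each group held 4 libraries. Whether the controls carried the Cre, whether litters were shared and whether animals were pooled is not stated, so the p-values measure the spread between these libraries.

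All members use molecular oxygen, iron and 2-oxoglutarate in the same kind of reaction as PHD2 itself. The Kdm enzymes among them demethylate lysines of histone H3, Jmjd6 is a JmjC enzyme that acts mainly on other proteins, and Tet2 and Tet3 oxidise 5-methylcytosine in DNA. PHD2 hydroxylates the α subunits of the hypoxia-inducible factors HIF1 and HIF2, which are then degraded, and Kdm3a, Kdm4b and several other demethylase genes are known HIF targets in hypoxic cells. In blood formation, Tet2 and Kdm6a are best known as genes lost in myeloid disease.

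The promoters are shown first because the HIF recognition core can be looked for in them. The letters ACGTG and GCGTG were searched on both strands, so also as CACGT and CACGC, and a palindromic CACGTG counts as 2 overlapping matches. RefSeq windows on GRCm38.p6, each of 300 bases from 250 before to 50 after a start, were given for 8 of the 10 members (Kdm4b and Kdm6b had none). Of their 14 windows 10 held at least 1 match, against 43.8% of all 32851 windows. Starts of the same gene were counted as separate windows, and some of these overlap. The Kdm2b windows chr5:122900318-122900617 and chr5:122900301-122900600 hold the same matches. The windows are therefore not independent, and a share by gene was not computed for all genes. The bases before the start are printed 5′ to 3′ on the strand of the gene for Kdm3a, the member with the smallest p for genotype, and for Kdm4c, the member with most matches in a window, with the matches in capitals.
Kdm3a, chr6:71632918-71633167, minus strand: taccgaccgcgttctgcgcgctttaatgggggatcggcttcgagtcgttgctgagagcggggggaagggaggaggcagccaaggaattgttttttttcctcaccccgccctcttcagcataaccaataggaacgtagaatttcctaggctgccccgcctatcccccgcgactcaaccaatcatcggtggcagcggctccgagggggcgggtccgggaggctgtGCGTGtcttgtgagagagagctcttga
Kdm4c, chr4:74251629-74251878, plus strand: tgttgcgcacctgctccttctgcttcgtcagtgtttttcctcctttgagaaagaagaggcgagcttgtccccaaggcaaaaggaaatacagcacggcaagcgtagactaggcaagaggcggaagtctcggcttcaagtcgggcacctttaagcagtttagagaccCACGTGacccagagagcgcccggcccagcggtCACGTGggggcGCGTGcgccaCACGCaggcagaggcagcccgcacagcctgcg
The Kdm3a window held 1 match, at -27 from the RefSeq start, and the GENCODE model of the gene begins further upstream at 71632990. The 2 other RefSeq starts of Kdm3a had none. The Kdm4c window held 6 matches, and the window of its other start none. A match describes letters only, and binding was not measured.

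The libraries held 23450746 to 28601284 counts, so that each member was read by at least 391 counts in every library. All 9 neutrophil markers were present, with sums of 29190 to 75290 CPM (counts relative to the library total after TMM scaling, in the usual unit). Markers of other cells were also present in every library. The 7 erythroid markers summed to 23440 to 48460 CPM and the 10 monocyte and macrophage markers to 1979 to 3381 CPM. The 3 stroma markers summed to 317.8 to 777.6 CPM in the P2 line and to 125.4 to 205.1 CPM in the P2H2 line. Fewer cells of a type and less RNA per cell cannot be told apart in such libraries. Transcripts of the targeted Egln1 were not lower in the deficient groups (means ± SD over 4 libraries of 49.46 ± 6.356 and 48.66 ± 2.3 CPM for P2KO and P2WT, and of 52.87 ± 4.286 and 52.43 ± 3.163 CPM for P2H2KO and P2H2WT). Those of Epas1 averaged 5.615 ± 2.13 CPM for P2H2KO against 3.572 ± 1.032 CPM for P2H2WT. Counts over whole genes do not show a deleted exon, so every direction below rests on the genotype labels.

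The members lie on 8 chromosomes of GRCm38 as annotated in GENCODE M21. Kdm3a (ENSMUSG00000053470) spans chr6:71588972-71632990 on the minus strand, Kdm4b (ENSMUSG00000024201) chr17:56326062-56402870 on the plus strand and Kdm4c (ENSMUSG00000028397) chr4:74242497-74405860 on the plus strand. Kdm2b spans chr5:122870665-122989823 (minus), Kdm5b chr1:134560171-134635285 (plus), Kdm6b chr11:69398508-69413675 (minus) and Jmjd6 chr11:116837432-116843449 (minus). Tet2 spans chr3:133463679-133545139 (minus), Tet3 chr6:83362373-83459084 (minus) and Kdm6a chrX:18162575-18279936 (plus). All are protein-coding. Exons of Kdm2b overlap Rnf34, A930024E05Rik and Gm44574 and those of Tet2 overlap Gm42567, so their counts are uncertain to that extent.

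To compare the members with each other, CPM were divided by the exon length of the gene in kilobases. Kdm6b, an H3K27 demethylase, had the highest level at 13.8 ± 3.269 CPM per kilobase (SD over 16 libraries), and Kdm6a, the X-linked enzyme of the same mark, was next at 11.95 ± 3.235. That order depended on the letter at the end of the library title, described further on. Kdm6b exceeded Kdm6a in all 10 libraries with m but in only 2 of 6 with f, where Kdm6b averaged 13.37 ± 2.982 and Kdm6a 15.86 ± 1.318 CPM per kilobase. Kdm4c at 7.632 ± 0.6181, Tet3 at 7.1 ± 0.7554 and Kdm3a at 6.526 ± 0.8174 CPM per kilobase formed the middle. Kdm4b (5.692), Jmjd6 (4.579), Kdm2b (3.931) and Kdm5b (3.719) followed, and Tet2 was lowest at 1.383 ± 0.3291 CPM per kilobase, below Kdm5b in all 16 libraries. Neighbours in this order were often close. Kdm4c exceeded Tet3 in 13 of 16 libraries, Tet3 exceeded Kdm3a in 11 and Kdm2b exceeded Kdm5b in 10, whereas Kdm4b exceeded Jmjd6 in 16. The 29.3% of tested genes that lay below Tet2 and the 74.6% below Kdm6b place the members from the lower to the upper-middle part of the expressed genes on the per-kilobase scale.

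**Figure D1:**
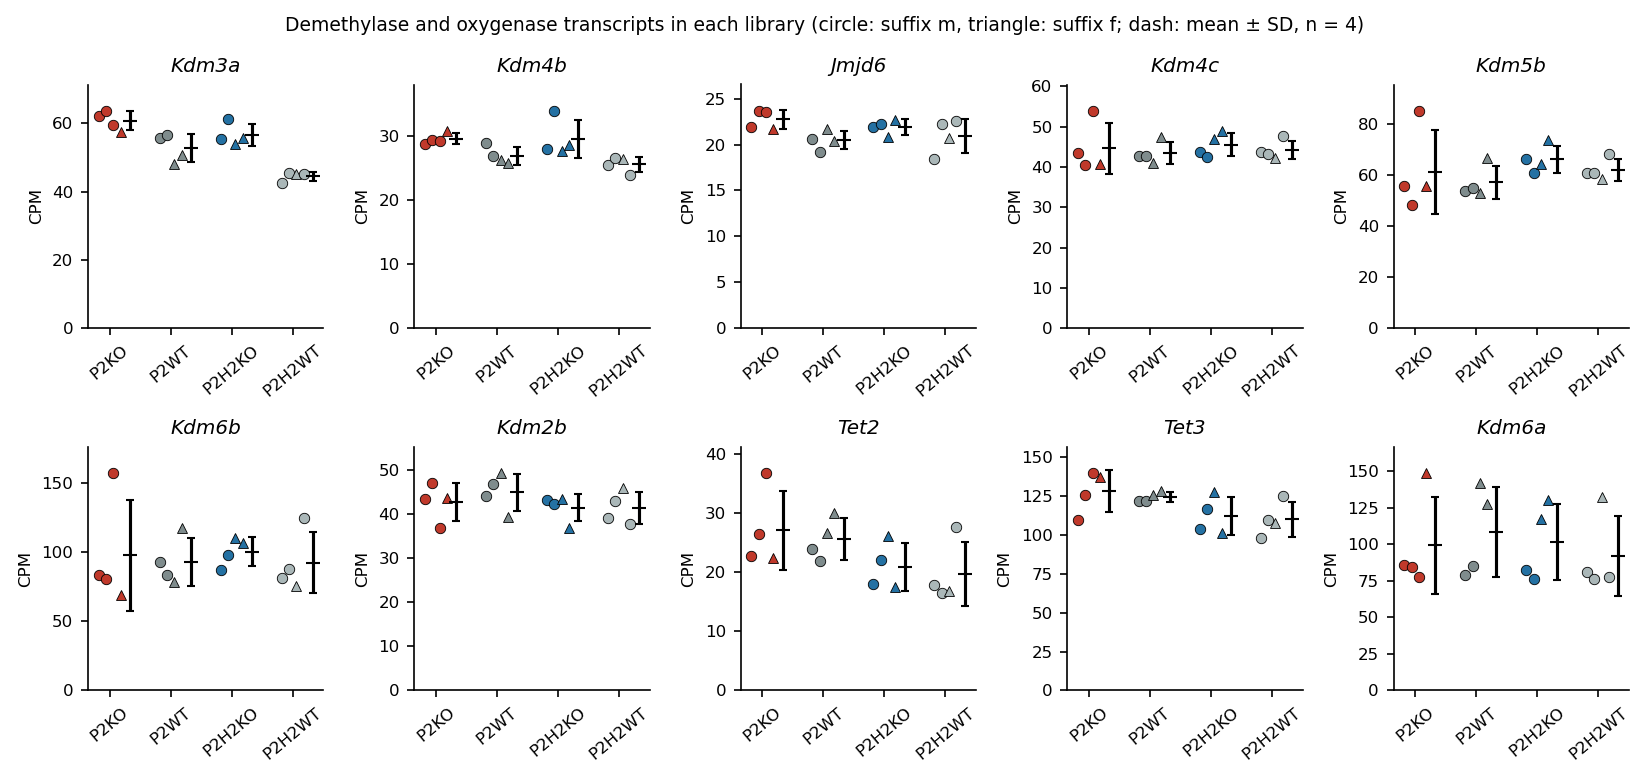
CPM of each member (y axis, from 0) in every library of the 4 groups (x axis), with circles for titles ending in m, triangles for titles ending in f, and a bar for the mean ± SD of 4 libraries. The Kdm3a libraries of each deficient group lie above those of their controls, and the Kdm6a libraries divide by title letter, with 75.94 to 85.95 CPM for m and 117.4 to 148.7 CPM for f.

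The comparisons within lines asked which transcripts change without PHD2 and without PHD2 and HIF2α. Of the members, 0 of 10 passed an adjusted p of 0.05 in P2KO against P2WT (quasi-likelihood F test of edgeR, Benjamini-Hochberg adjusted over the genes tested), where 0.0437% of 13734 tested genes did. In P2H2KO against P2H2WT it was also 0 of 10, with 0.0744% of 13435 genes called. At an unadjusted p under 0.05, 3 members were higher in P2KO (1.49% of all genes were) and 2 in P2H2KO (1.62% of all genes), and no member was lower. DESeq2, which called more genes in general, called 0 members in the P2 line (0.167% of all genes) and 1, Kdm3a, in the P2H2 line (0.313% of all genes). In the mean of both genotype effects, estimated from all 16 libraries, 1 member of 10 passed, Kdm3a, where 0.170% of 14080 genes did. DESeq2 called the same member there and 0.462% of all genes. With scores of erythroid and of monocyte and macrophage markers as covariates, a fit added after the data were seen, 0 members passed in the mean effect (edgeR adjusted p 0.627 for Kdm3a). At an unadjusted p under 0.05 there were 3 members, all higher, Kdm3a, Kdm4b and Jmjd6, where 1.90% of all genes were higher. As 1 of the 10 members passed, the set is named here by its enzymes, JmjC and TET oxygenases, and not by a response to hypoxia.

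Kdm3a encodes a demethylase of mono- and dimethylated H3K9. Its transcript was at 62.17, 63.75, 59.66 and 57.54 CPM in the P2KO libraries and at 50.65, 55.74, 56.58 and 48.14 CPM in P2WT. In the other line it was at 55.33, 61.29, 53.91 and 55.74 CPM in P2H2KO and at 42.62, 45.38, 45.18 and 45.13 CPM in P2H2WT. On TMM-scaled totals every deficient library was above every control library of its line. The margin was narrow in the P2 line (57.54 against 56.58 CPM) and wider in the P2H2 line (53.91 against 45.38 CPM). Groups were separated upwards in 0.794% of genes in the P2 line, in 0.819% in the P2H2 line and in 0.185% in both lines. Kdm3a was the only member separated in both. On unscaled totals its P2 groups overlapped, with 1515 of 26505125 counts in P2KO replicate 6 and 1479 of 25673796 in P2WT replicate 3.

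The mean of the Kdm3a effects was a log2 fold change of 0.28 (SE 0.0442, 95% interval 0.188 to 0.376), or 1.22-fold, with an edgeR adjusted p of 0.0128. By its unadjusted p of 1.18e-05 it ranked 13 among the 14080 genes. The effect was 0.22 (SE 0.0688, unadjusted p 0.0114) in the P2 line and 0.36 (SE 0.0644, unadjusted p 3.24e-04, edgeR adjusted p 0.29) in the P2H2 line. The difference between these effects was -0.15 (SE 0.0883, interval -0.34 to 0.037, edgeR adjusted p 0.999). The increase in the line labelled as also lacking HIF2α was thus not detectably smaller, and the interval allows the P2 effect to exceed it by at most 0.037 on the log2 scale. Leaving out each of the 16 libraries in turn kept the call of the mean effect, with edgeR adjusted p values from 0.00904 to 0.0409, whereas testing all genes with at least 1 count gave 0.0525. With the 2 marker scores as covariates the mean effect was 0.25 (SE 0.0767, unadjusted p 0.00578) and did not pass (edgeR adjusted p 0.627). The monocyte and macrophage score did not overlap between genotypes in either line, so its part and that of genotype are hard to tell apart.

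Most markers of monocytes and macrophages had negative log2 fold changes in both lines. Of the 10 markers, 0 had a positive log2 fold change in the P2 line and 3 in the P2H2 line, with medians of -0.281 and -0.435. At an unadjusted p under 0.05, 275 of all 13734 genes were lower in the P2 line and 136 of 13435 in the P2H2 line. Of these markers 2 were lower at that p in the P2 line and 7 in the P2H2 line. After adjustment (edgeR) 0 of these markers passed in either line. Their sum was 2027 to 2355 CPM in P2KO and 2455 to 2954 CPM in P2WT, without overlap, and 1979 to 3381 CPM in P2H2KO and 2323 to 3368 CPM in P2H2WT, with overlap. The mean log2 CPM of these markers did not overlap in either line. It was 7.233 to 7.462 in P2KO and 7.555 to 7.729 in P2WT. In the other line it was 7.118 to 7.466 in P2H2KO and 7.529 to 7.616 in P2H2WT. The 7 T and NK cell markers, which are scarce in these libraries, had 0 positive values in the P2 line (median -0.433, 4 lower at an unadjusted p under 0.05) and 3 in the P2H2 line (median -0.0809, 0 at that p). Their sums were 48.71 to 71.5 CPM in P2KO and 70.58 to 81.94 CPM in P2WT. The 7 erythroid markers were all positive in the P2 line (median 0.0631) and all negative in the P2H2 line (median -0.197), and 0 had an unadjusted p under 0.05 in either.

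With the erythroid and the monocyte and macrophage scores (the mean log2 CPM of each list) as covariates, the Kdm3a effect was 0.012 (SE 0.106, unadjusted p 0.911) in the P2 line and 0.41 (SE 0.132, unadjusted p 0.0133) in the P2H2 line. Because the monocyte and macrophage score separated the genotypes in both lines, its part and that of genotype are hard to tell apart in these fits. Within groups Kdm3a was not related to the monocyte and macrophage score beyond the permutation spread, with r = -0.24 (Pearson) and rho = -0.33 (Spearman) over 16 libraries (permutation p 0.454 and 0.295), and r was -0.386 within the P2 line and -0.0712 within the P2H2 line. With the erythroid score it had r = 0.452 and rho = 0.456 (permutation p 0.107 and 0.118), and r was 0.552 and 0.33 within the lines. The part of T and NK cell transcripts in the Kdm3a difference was not tested.

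Kdm4b and Kdm4c encode demethylases of trimethylated H3K9 and H3K36. Kdm4b was at 28.79, 29.4, 29.14 and 30.73 CPM in P2KO and at 25.7, 28.8, 26.79 and 26.22 CPM in P2WT, where 1 control library lay within the range of P2KO. In the P2H2 line it was at 27.97, 33.92, 27.58 and 28.5 CPM in P2H2KO and at 25.44, 26.55, 26.33 and 23.96 CPM in P2H2WT, without overlap. The log2 fold changes were 0.15 (SE 0.0595, unadjusted p 0.033) and 0.22 (SE 0.0854, unadjusted p 0.0294), and their mean was 0.18 (SE 0.0481, interval 0.076 to 0.28, edgeR adjusted p 0.35). Kdm4c lay close together in all groups. P2KO libraries held 43.38, 40.44, 53.95 and 40.74 CPM and P2WT libraries 47.37, 42.7, 42.66 and 41.07 CPM. P2H2KO libraries held 43.72, 42.54, 46.93 and 48.89 CPM and P2H2WT libraries 43.74, 43.2, 42.21 and 47.56 CPM. The mean of its effects was 0.049 with an interval of -0.086 to 0.18 on the log2 scale.

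Jmjd6, a lysyl hydroxylase of splicing factors for which histone substrates have also been described, was at 21.93, 23.69, 23.59 and 21.72 CPM in P2KO and at 20.39, 20.62, 19.2 and 21.65 CPM in P2WT. These groups did not overlap, although the lowest P2KO library at 21.72 CPM barely exceeded the highest P2WT library at 21.65 CPM. On unscaled totals they overlapped, with 592 of 26630600 counts in P2KO replicate 1 and 545 of 24169451 in P2WT replicate 7. In the P2H2 line the ranges overlapped, at 20.78 to 22.71 and 18.4 to 22.51 CPM. The log2 fold change was 0.17 (SE 0.0661, unadjusted p 0.0329) in the P2 line and 0.078 (SE 0.0822) in the P2H2 line, and the difference between them was 0.077 with an interval of -0.14 to 0.29. Exons of Jmjd6 overlap Mettl23 on the opposite strand and Gm27401 on the same strand. The use of strand in counting is not given in the sources used here, so reads of these genes may be mixed.

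The remaining 6 members did not change detectably with genotype, and their intervals differ widely in what they allow. Kdm2b is an H3K36 demethylase that also recruits a Polycomb complex to CpG islands. It was measured at 43.46, 47.25, 37.02 and 43.83 CPM for P2KO, at 39.46, 44.14, 46.96 and 49.45 CPM for P2WT, at 43.25, 42.46, 43.46 and 36.96 CPM for P2H2KO and at 39.15, 43.08, 45.92 and 37.74 CPM for P2H2WT. The ranges of deficient and control libraries overlapped in both lines, and the mean effect was -0.025 with an interval of -0.16 to 0.11.

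Kdm5b demethylates H3K4. Its values were 55.57, 48.24, 85.1 and 55.74 CPM for P2KO, 66.72, 53.82, 54.71 and 52.95 CPM for P2WT, 65.99, 60.61, 64.17 and 73.42 CPM for P2H2KO and 60.73, 60.68, 58.48 and 68.25 CPM for P2H2WT. A single P2KO library, replicate 6, stood above all others, and the groups overlapped in both lines, with a mean effect of 0.10 (interval -0.11 to 0.32).

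Kdm6b removes methyl groups from H3K27 and is known as an inducible gene of activated macrophages. It read 83.62, 80.33, 157.4 and 69.37 CPM for P2KO, 117.5, 92.72, 83.77 and 78.53 CPM for P2WT, 87.1, 97.75, 110.2 and 106.8 CPM for P2H2KO and 81.3, 87.79, 75.73 and 125.1 CPM for P2H2WT. Again P2KO replicate 6 was highest and each pair of groups overlapped. The mean effect was 0.10 with a wide interval of -0.24 to 0.44. Exons of the antisense gene Kdm6bos overlap those of Kdm6b.

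The 5-methylcytosine oxidase Tet2 had 22.75, 26.37, 36.78 and 22.37 CPM for P2KO, 30.08, 23.97, 21.84 and 26.69 CPM for P2WT, 18, 22.09, 26.18 and 17.41 CPM for P2H2KO and 17.9, 16.49, 16.74 and 27.64 CPM for P2H2WT. In each of the 4 groups the highest library was also the highest for Kdm6b (P2KO replicate 6, P2WT replicate 10, P2H2KO replicate 15 and P2H2WT replicate 18). The mean effect of Tet2 was 0.091 (interval -0.20 to 0.39). Tet3, which carries out the same reaction, was far more even. It had 109.6, 125.6, 139.6 and 137.2 CPM for P2KO, 128.2, 121.6, 121.6 and 125.4 CPM for P2WT, 103.7, 116.4, 127.5 and 100.9 CPM for P2H2KO and 97.58, 109.4, 107.3 and 125 CPM for P2H2WT. Its mean effect was 0.045 (interval -0.099 to 0.19). Kdm6a had the widest interval of the members (0.017, from -0.38 to 0.41), and its values, which followed the letter at the end of the library title, are given further on.

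**Figure D2:**
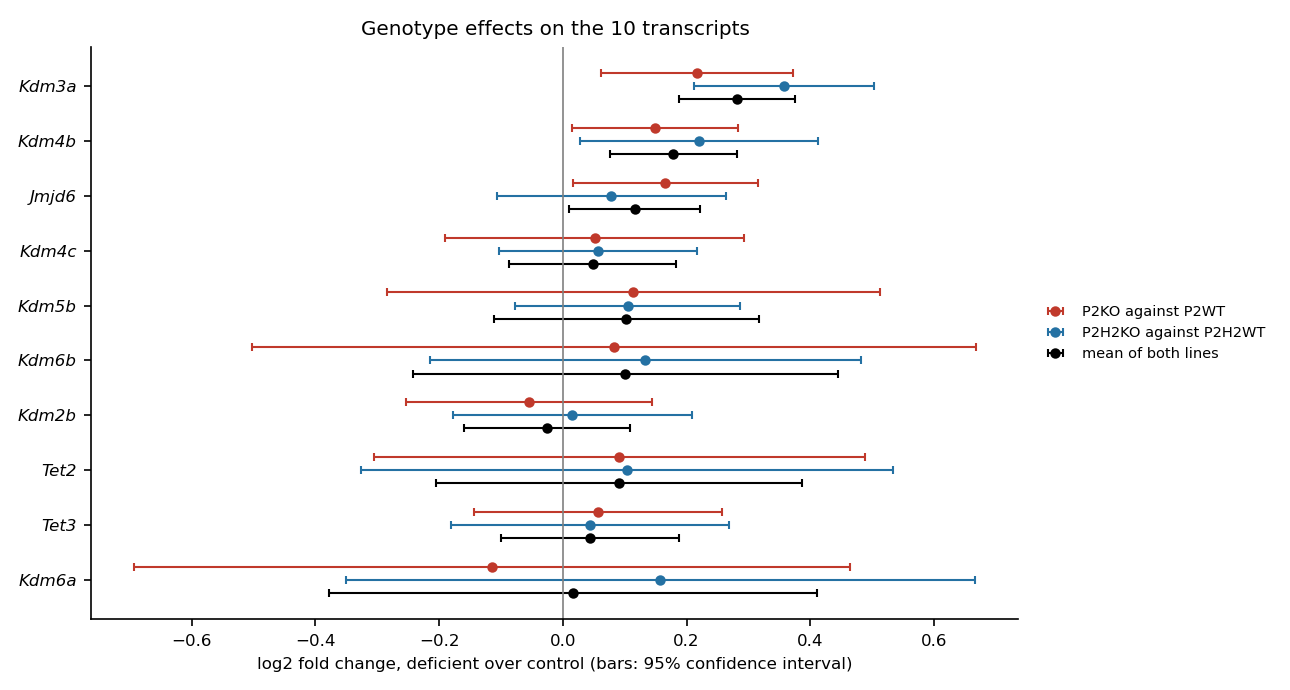
Log2 fold changes of each member (x axis) with 95% confidence intervals as bars, for P2KO against P2WT in red, P2H2KO against P2H2WT in blue and the mean of both in black. The intervals of Kdm3a and Kdm4b lie above 0 in all 3 estimates, from 0.062 to 0.37, from 0.21 to 0.50 and from 0.19 to 0.38 for Kdm3a.

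Each member was also tested by permutation within each line. The exact two-sided permutation test over all 70 splits of 4 against 4 libraries cannot give a p below 0.0286. It gave that value for Kdm3a in both lines, for Jmjd6 in the P2 line and for Kdm4b in the P2H2 line. That value arises whenever the groups do not overlap, so these 4 results restate the separations given above. Adjusted over the 20 exact tests, these 4 had a p of 0.143 and none passed. With that floor 4 such values among 20 tests cannot pass, so the adjusted result decides nothing. None of the members was found to differ in its effect between the lines either, as 0 of 10 and 0 of 14080 genes had an adjusted p under 0.05 in edgeR for the difference of the effects (0.00% called), and 0 members and 1.51% of all genes had an unadjusted p under 0.05. DESeq2 also called 0 members there (0.00% of all genes).

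The control groups of the lines were compared as a gauge of what separates the lines apart from genotype. Of the members 0 of 10 had an adjusted p under 0.05 (edgeR), against 0.227% of 14080 genes. Kdm3a was higher in P2WT than in P2H2WT, by 0.25 on the log2 scale (SE 0.0626, unadjusted p 0.00118, edgeR adjusted p 0.106). It was the single member with an unadjusted p under 0.05, where 6.94% of all genes were higher at that p. DESeq2 called it and no other member, where 2.07% of all genes were called, with an adjusted p of 0.0142, and edgeR with the title letter as a covariate 0.0378. This gap between controls was about as large as the genotype effect within a line. Tet2 averaged 25.65 ± 3.564 CPM over the P2WT and 19.69 ± 5.332 CPM over the P2H2WT libraries (SD, n = 4), with a log2 difference of 0.39 (SE 0.197, unadjusted p 0.0669). Line, count table and time of preparation cannot be told apart in this comparison, and the stroma markers given above differed between the lines in the same direction.

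Other genes of the pathway were taken from lists, and each list was counted in the mean of the genotype effects. Over all 14080 genes the median log2 fold change was 0.0029 and 51.9% were positive, against a median of 0.096 and 9 positive of 10 for the members. Of 17 other JmjC and TET genes 16 were tested, 14 were positive with a median of 0.037, and 0 passed (edgeR adjusted p under 0.05). Kdm2a, a paralogue of Kdm2b, was the only one with an unadjusted p under 0.05, at 0.13 (SE 0.0485, p 0.0156), followed by Tet1 at 0.15 (p 0.125) and Hspbap1 at 0.11 (p 0.142). The flavin-dependent demethylases, which use oxygen in another way, were at -0.084 (Kdm1b, p 0.267) and -0.0015 (Kdm1a, p 0.97).

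The enzymes that place the marks gave no call. Of 25 histone and DNA methyltransferase genes and their partners 20 were positive with a median of 0.030, and 0 had even an unadjusted p under 0.05. The smallest unadjusted p values belonged to Setdb2 (-0.089, p 0.0867), Kmt2a (0.12, p 0.249) and Ehmt1 (0.044, p 0.332). Of 9 genes of enzymes that make 2-oxoglutarate or remove succinate, fumarate and 2-hydroxyglutarate, which are cosubstrate or inhibitors of the members, 8 were negative with a median of -0.034. Of these, 0 passed and 0 had an unadjusted p under 0.05, and Sdhc (-0.065, p 0.179), Idh2 (-0.083, p 0.183) and Sdhb (-0.062, p 0.2) came first. DESeq2 likewise called 0 genes of the other JmjC and TET, flavin-dependent, methyltransferase and cosubstrate lists in the mean effect.

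Among genes known as HIF targets 9 had a larger and 4 a smaller log2 fold change than Kdm3a in the mean effect. Of 14 listed 13 were tested, 12 were positive with a median of 0.63, and 6 passed in the mean effect with edgeR (8 with DESeq2): Ankrd37 (2.71), Aldoc (1.65), Bnip3 (1.08), Egln3 (0.91), P4ha1 (0.83) and Pdk1 (0.63). Several of these were picked with results of these libraries known and are no independent evidence of the direction. Among 8 genes of oxygen sensing, Egln3, a prolyl hydroxylase related to PHD2, was the one that passed, while Hif1a was at -0.19 (SE 0.0975, p 0.0667) and Epas1 at 0.48 (SE 0.26, p 0.0861). Vegfa, a classical HIF target, was at 0.18 (SE 0.0654, p 0.0145), a change of the size of that of Kdm4b.

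The genes most like Kdm3a across libraries were sought among 9581 named genes with a mean of at least 5 CPM. Predicted genes, with symbols of Gm and a number or ending in Rik, were left out. The mean of each line had first been removed from the log2 CPM. The highest Pearson r over the 16 libraries belonged to P4ha1 (0.891), a collagen prolyl hydroxylase subunit, and Pfkl (0.884), a phosphofructokinase. Grhpr (0.876), a glyoxylate reductase, Tpi1 (0.859), triosephosphate isomerase, and Egln3 (0.85) followed. The genotypes are part of this likeness, because all 5 genes were also higher in the deficient groups, with mean log2 fold changes of 0.83, 0.83, 0.73, 0.76 and 0.91. The r values describe these libraries, which share their genotype and line, and carry no test. The change of Kdm3a was smaller than that of each of them.

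**Figure D3:**
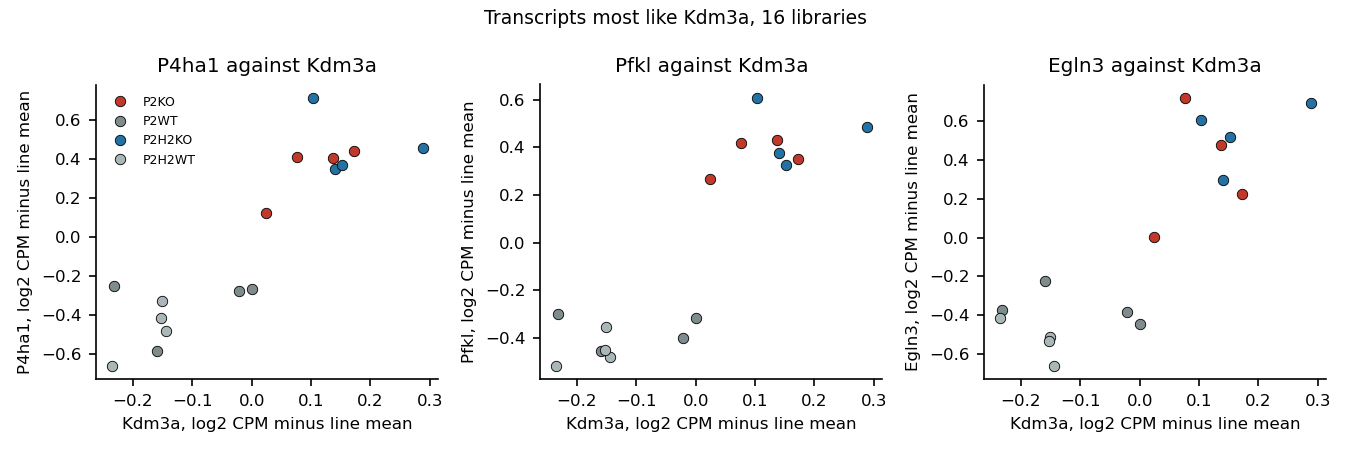
Log2 CPM of P4ha1, Pfkl and Egln3 (y axes) against Kdm3a (x axis), each minus the mean of its line, with 1 point per library coloured by group. Deficient libraries lie to the upper right of control libraries, with r of 0.891, 0.884 and 0.85 over 16 libraries.

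Kdm6a varied with the letter at the end of the library title rather than with genotype. The titles of 10 libraries end in m and those of 6 in f, which the labels do not spell out. Kdm6a was at 80.54 ± 3.791 CPM in the m libraries (SD, n = 10, from 75.94 to 85.95) and at 132.9 ± 11.05 CPM in the f libraries (n = 6, from 117.4 to 148.7). The letters did not overlap, as in 0.128% of all genes that were higher for f. The log2 difference was 0.74 (SE 0.0462, edgeR adjusted p 4.13e-07) with the groups in the model. Of the members 1 of 10 passed this comparison, against 0.163% of 14080 genes (DESeq2 called the same 1 member and 3.15% of all genes), and it held within each line, at 0.78 (SE 0.0712, edgeR adjusted p 0.00985) in the P2 line and 0.69 (SE 0.068, edgeR adjusted p 0.0101) in the P2H2 line.

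Uty, the copy of Kdm6a on the Y chromosome with little demethylase activity, had 439 to 606 counts in each m library and 0 counts in all 6 f libraries. It reached 1.989 ± 0.1518 CPM per kilobase in the m libraries, against 9.607 ± 0.4522 for Kdm6a there. With both copies added, the level was 11.6 ± 0.5691 CPM per kilobase in the m libraries (10.86 to 12.55) and 15.86 ± 1.318 in the f libraries (14 to 17.74). The sum thus still separated the letters. The H3K4 demethylase Kdm5c, also X-linked, was at 185.8 ± 8.874 CPM in the m and 212.6 ± 14.19 CPM in the f libraries without overlap, a log2 difference of 0.20 that did not pass over all genes (unadjusted p 0.0015, edgeR adjusted p 0.102), although it did with DESeq2. Its Y-linked copy Kdm5d had 379 to 566 counts in the m libraries and 0 to 1 in the f libraries. By these Y-linked counts the letters match male and female animals in all 16 libraries, although the labels do not say so.

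The letters were unevenly spread, with 3 m libraries in P2KO and P2H2WT and 2 in P2WT and P2H2KO. The Kdm6a effects of -0.11 in the P2 line and 0.16 in the P2H2 line reversed to 0.075 (SE 0.0701) and -0.010 (SE 0.0668) with the letter as a covariate. Among m libraries alone Kdm6a had means of 82.56 CPM in P2KO, 81.98 in P2WT, 79.29 in P2H2KO and 78.38 in P2H2WT. Kdm3a was lower in the f libraries by 0.091 on the log2 scale (SE 0.0412, unadjusted p 0.0445, edgeR adjusted p 0.277), and its mean genotype effect with the letter as a covariate was 0.28 (SE 0.0385, edgeR adjusted p 0.00376).

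**Figure D4:**
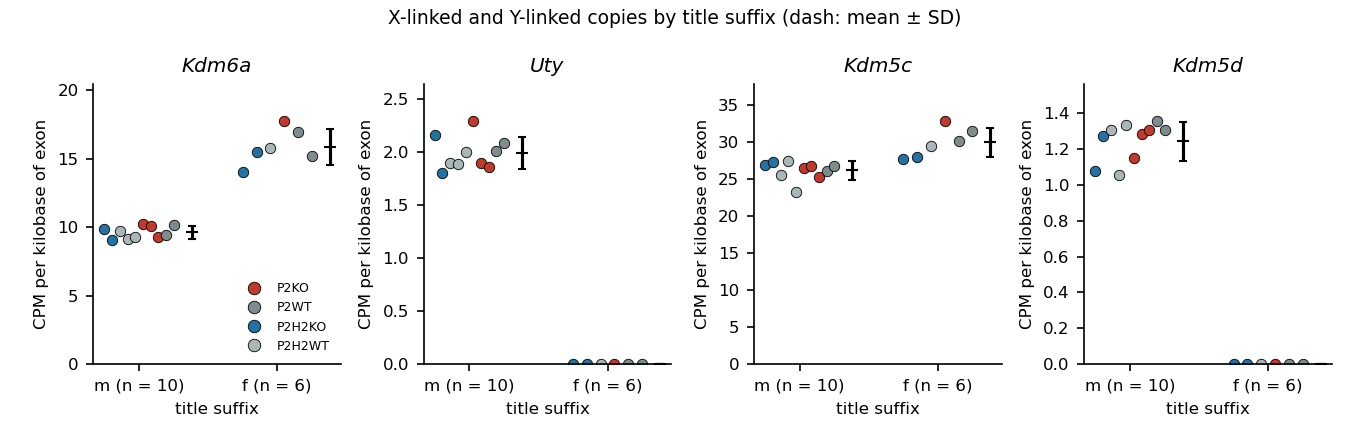
CPM per kilobase of exon (y axes, from 0) of the X-linked Kdm6a and Kdm5c and of their Y-linked copies Uty and Kdm5d by title letter (x axis), with 1 point per library coloured by group and bars for mean ± SD. Kdm6a is at 9.607 for m and 15.86 for f on average, and Uty is at 0 in all 6 f libraries.

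The members also varied together within groups. After the group means had been removed from the log2 CPM, 85 relations were computed over the 16 libraries, 45 between members and 40 with scores of 4 marker lists. P values came from 100000 permutations within groups and were adjusted over the 85 relations. The mature neutrophil score (Cxcr2, Il1b, Csf3r, Ccl6, Fpr1, Fpr2 and Mmp9) was related to 4 members. Kdm4c followed it most closely, with r = 0.964 (Pearson) and rho = 0.921 (Spearman) (permutation p 1.40e-04 and 4.00e-05, adjusted 0.00442 and 0.0034). The r was 0.922 without the 2 libraries farthest from the median of Kdm4c, 0.964 within the P2 line and 0.965 within the P2H2 line.

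Kdm6b had an r of 0.933 and a rho of 0.83 with the mature neutrophil score (permutation p 1.80e-04 and 2.30e-04, adjusted 0.00442 and 0.00977), and an r of 0.877 without the 2 farthest libraries. Kdm5b had an r of 0.882 and a rho of 0.735 (permutation p 0.00262 and 0.00529, adjusted 0.0247 and 0.0642), and an r of 0.709 without the 2 farthest. Kdm2b ran the other way, with an r of -0.814 and a rho of -0.718 (permutation p 0.00146 and 0.00616, adjusted 0.0177 and 0.0654), and an r of -0.67 without the 2 farthest. For Kdm5b and Kdm2b only Pearson's r passed the adjusted threshold. The early granule score (Elane, Mpo, Prtn3, Ctsg and Ms4a3) was related to 0 members after adjustment. The mean log2 CPM of the 9 neutrophil markers ranked the libraries of each group in the same order as the mature neutrophil score. Cxcr2 and Csf3r are in both lists. Relations of the members with the neutrophil markers were not computed, so maturity and neutrophil content cannot be told apart here.

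A single library set the far end of these relations. P2KO replicate 6 had a mature neutrophil marker sum of 4487 CPM, against 1439 to 2425 CPM in the other P2KO libraries, and in it Kdm6b was at 157.4 CPM against 69.37 to 83.62, Kdm5b at 85.1 against 48.24 to 55.74 and Kdm4c at 53.95 against 40.44 to 43.38. Without that library the Kdm6b effect in the P2 line turned from 0.083 to -0.25, that of Kdm5b from 0.11 to -0.089 and that of Kdm4c from 0.052 to -0.053. P2KO replicate 6 also had the highest neutrophil marker sum of its group, 66970 CPM against 29190 to 41480 CPM. Its erythroid marker sum was the lowest, 23440 CPM against 37620 to 42560 CPM. Kdm3a in the same library, at 59.66 CPM, lay among the other P2KO libraries. Over all groups Kdm3a had an r of -0.121 and a rho of -0.0912 with the mature neutrophil score (permutation p 0.68 and 0.773).

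**Figure D5:**
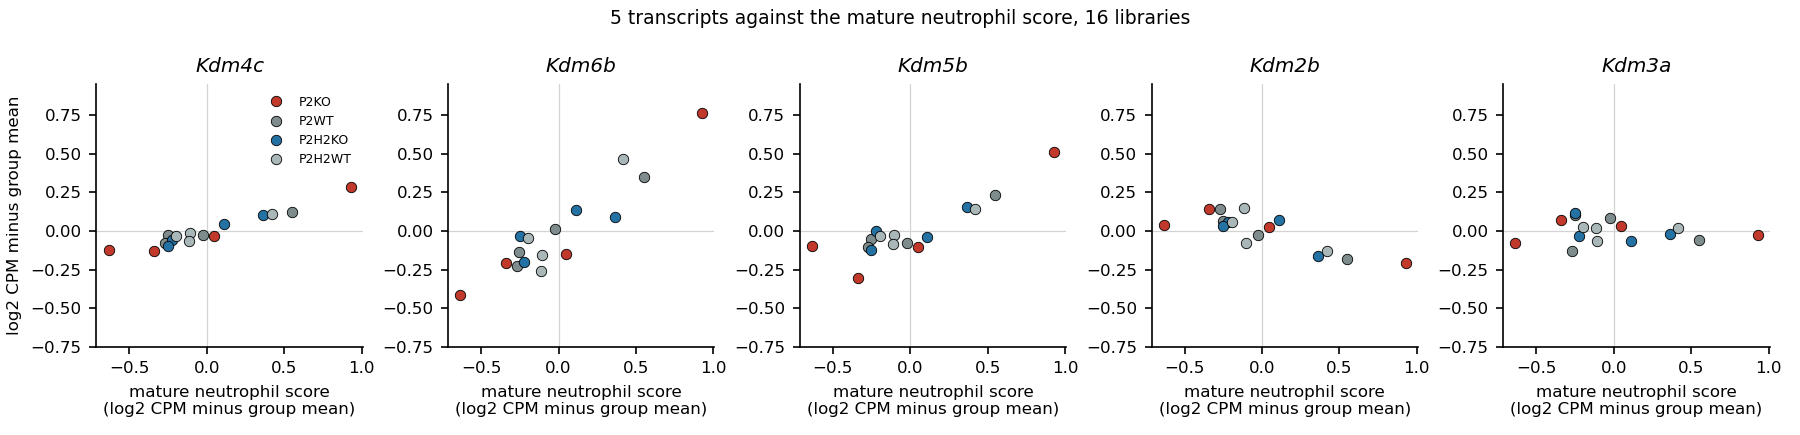
Log2 CPM minus the group mean of Kdm4c, Kdm6b, Kdm5b, Kdm2b and Kdm3a (y axes) against the mature neutrophil score minus its group mean (x axes, mean log2 CPM of 7 markers), with 1 point per library coloured by group. Points rise for Kdm4c (r 0.964), Kdm6b (0.933) and Kdm5b (0.882), fall for Kdm2b (-0.814) and are flat for Kdm3a (-0.121), and the point farthest right is P2KO replicate 6.

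Among the 45 pairs of members 7 passed after adjustment of the permutation p of Pearson's r. The 4 positive pairs were Kdm4c with Kdm5b (0.948), Kdm4c with Kdm6b (0.931), Kdm5b with Kdm6b (0.855) and Kdm6b with Tet2 (0.807). The 3 negative pairs set Kdm2b against Kdm4c (-0.844), Kdm5b (-0.841) and Kdm6b (-0.779). By Spearman's rho only Kdm4c with Kdm5b (0.85) and Kdm4c with Kdm6b (0.844) passed, with adjusted permutation p values of 0.0155 and 0.013. Without the 2 farthest libraries the 7 pairs kept their signs, and Kdm6b with Tet2 weakened to 0.589, Kdm5b with Kdm6b to 0.624 and Kdm2b with Kdm6b to -0.622. Kdm3a and Kdm4b had an r of 0.537 and a rho of 0.471, which did not pass (permutation p 0.0731 and 0.0909, adjusted 0.239 and 0.334).

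The other scores were related to 1 member each or to none. Tet2 fell as the erythroid score rose, with an r of -0.77 and a rho of -0.579 (permutation p 0.00324 and 0.0425, adjusted 0.0275 and 0.201), and an r of -0.68 without the 2 farthest libraries. Kdm6a rose with the monocyte and macrophage score, with an r of 0.71 and a rho of 0.821 (permutation p 0.00369 and 9.10e-04, adjusted 0.0285 and 0.0155). The monocyte and macrophage markers were all higher in the f libraries, by a median of 0.113 on the log2 scale, and the part of the title letter in the relation of Kdm6a was not tested.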

How the data were processed

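The data are RNA sequencing counts per gene in 16 mouse libraries, grouped by their titles. The authors deposited 2 tables of raw counts, 1 per line, with 49585 Ensembl identifiers, and reads were counted with HTSeq on mm10 per the submitters' processing notes. The aligner, annotation release and use of strand are not given in the sources used here. GENCODE M21 (GRCm38) named 49326 identifiers, and the other 259 held 0.00714% of counts. The members and lists were chosen with earlier results of these data known.

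Low counts were removed by filterByExpr (edgeR 4.0.16, R 4.3.3), libraries were TMM-scaled, and genes were tested with glmQLFit (robust) and glmQLFTest. P-values were two-sided, with Benjamini-Hochberg adjustment across the genes in a fit and a threshold of 0.05. Each line was fitted on its own 8 libraries, and the mean and the difference of the effects, the control groups and the title letter on all 16. Standard errors came from the quasi-likelihood F statistic. CPM were computed here from the deposited counts on TMM-scaled totals, and CPM per kilobase used the exon union length. Exact permutation tests used log2(CPM + 1). Scores and correlations used log2 CPM with a prior count of 2, computed from the deposited counts. The mature neutrophil score used the 7 markers named, and 1 further marker set down with them is not reported here.

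Named genes were the members, Egln1, Epas1, list genes with an adjusted p under 0.05, up to 3 genes per list with the smallest unadjusted p in the mean effect, and the 5 genes most like Kdm3a. Vegfa and the Kdm5c comparison lie outside this rule and were chosen after their values were seen. No replicates looked like 1 library deposited again (every pair within a group differed, with chi-square divided by its degrees of freedom at least 11.5). Alternatives were DESeq2 1.42.0, RLE factors, upper-quartile factors, a minimum of 10 counts per library or no filter, a fit of all 16 libraries, the title letter or 2 marker scores as covariates (the scores added for the mean and the difference after the data were seen), and leaving out each library. The scripts were tested on simulated data.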

Additional observations from a re-analysis of the deposited data

Results flagged for a closer look

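In 8 of 40 sets of 4 libraries (10 members in 4 groups) the highest or lowest library stood apart from the others by more than the 95% limit of Dixon's ratio, where chance flags about 1 set in 20. Kdm3a was lowest in P2H2WT replicate 13 at 42.62 CPM, against 45.13 to 45.38 CPM in the rest of its group. Kdm4b was highest in P2H2KO replicate 12 at 33.92 CPM, and Kdm2b was lowest in P2H2KO replicate 17 at 36.96 CPM. Kdm5b stood out in P2WT replicate 10 at 66.72 CPM, Kdm6b in P2KO replicate 6 at 157.4 CPM and Tet2 in P2H2WT replicate 18 at 27.64 CPM. Those 3 libraries had the highest mature neutrophil marker sums of their groups, at 3429, 4487 and 3681 CPM. P2H2KO replicate 17, where Kdm2b was lowest, also had the highest such sum of its group, at 4151 CPM. P2H2KO replicate 12, where Kdm4b was highest, had the lowest, at 2384 CPM. Kdm6a stood out in P2KO replicate 9 at 148.7 CPM and in P2H2WT replicate 16 at 132.4 CPM, which were the only libraries of their groups with titles ending in f.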

How the results depend on the processing

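The mean effect of Kdm3a was called in 5 of 7 alternative settings. It was not called without a filter (edgeR adjusted p 0.0525) nor with the erythroid and the monocyte and macrophage scores as covariates (0.25, edgeR adjusted p 0.627), and 0 members passed there instead of 1. That second fit was added, for the mean and the difference, after the data were seen. In P2H2KO against P2H2WT, DESeq2 and the fit of all 16 libraries each called 1 member instead of 0, namely Kdm3a. In P2WT against P2H2WT, DESeq2 and the title letter as a covariate also called 1 instead of 0. Counts over all genes moved more. DESeq2 raised them from 6 to 23 (P2 line), from 10 to 42 (P2H2 line), from 24 to 65 (mean effect), from 32 to 291 (controls) and from 23 to 444 (title letter). The fit of all 16 libraries gave 10 in the P2 line, and the marker scores as covariates gave 1 in each line and 12 for the mean effect. Without a filter the controls gave 9 genes and the letter 58, with at least 10 counts in every library 0 and 9, and with the letter as a covariate the controls gave 124. On unscaled library totals 2 exact permutation tests had an unadjusted p under 0.05, instead of 4. Kdm3a and Jmjd6 in the P2 line were the tests lost, as their groups overlapped without the scaling. The cause was not tested.

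Leaving out single libraries gave 6 to 9 genes in the P2H2 line (6 without P2H2WT replicate 13), 15 to 30 for the mean effect (15 without P2WT replicate 4), 0 to 182 for the controls (182 without P2KO replicate 9, 0 without P2WT replicates 3, 4 or 7 or P2H2WT replicate 13, 1 without P2WT replicate 10 or P2H2WT replicate 16, 12 without P2KO replicate 5, 13 without P2H2KO replicate 12 and 15 without P2H2WT replicate 14) and 17 to 1066 for the letter (1066 without P2KO replicate 9, 470 without P2KO replicate 6 and 51 without P2H2WT replicate 18).

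Log2 fold changes near 0 reversed their sign, and none of these was called. With the marker scores as covariates the P2 line gave -0.0010 for Kdm4c, -0.26 for Kdm6b and 1.13 for Kdm6a (edgeR adjusted p 0.999), and the P2H2 line -0.092 for Kdm2b, -0.56 for Tet2 and -0.21 for Tet3. In both lines the monocyte and macrophage score separated the genotypes, so these fits can hardly tell it from genotype. With the title letter as a covariate the Kdm6a effect was 0.075 for P2KO, -0.010 for P2H2KO and 0.075 for the difference, where Kdm5b was at 0.0089. For the mean effect the scores gave -0.013 for Kdm5b, -0.20 for Kdm6b, -0.24 for Tet2 and -0.032 for Tet3, and for the difference 0.054 for Kdm4c, 0.087 for Kdm5b, 0.085 for Kdm6b and 0.18 for Tet2. The difference for Tet3 was -7.164e-04 with RLE factors, -0.0052 with at least 10 counts and -0.0011 with DESeq2, and that for Kdm5b was 0.0096 without a filter.

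Leaving out single libraries also reversed signs. In the P2 line the ranges were -0.10 to 0.0095 for Kdm2b, -0.053 to 0.11 for Kdm4c, -0.089 to 0.21 for Kdm5b, -0.38 to 0.037 for Kdm6a, -0.25 to 0.23 for Kdm6b and -0.093 to 0.19 for Tet2. In the P2H2 line they were -0.029 to 0.067 for Kdm2b, -0.020 to 0.31 for Tet2 and -0.020 to 0.11 for Tet3. For the mean effect they were -0.052 to 0.0066 for Kdm2b, -0.0041 to 0.075 for Kdm4c, -0.11 to 0.13 for Kdm6a, -0.064 to 0.19 for Kdm6b and -0.0014 to 0.20 for Tet2. For the difference they were -0.12 to 0.033 for Kdm4c, -0.21 to 0.090 for Kdm5b, -0.39 to 0.076 for Kdm6b, -0.23 to 0.10 for Tet2 and -0.068 to 0.070 for Tet3. Between controls they were -0.089 to 0.0088 for Jmjd6, -0.068 to 0.021 for Kdm4c and -0.12 to 0.20 for Kdm6b. For the title letter they were -0.024 to 0.023 for Jmjd6, -0.026 to 0.056 for Kdm2b, -0.023 to 0.061 for Kdm4c, -0.035 to 0.079 for Kdm5b, -0.19 to 0.058 for Kdm6b and -0.089 to 0.096 for Tet2. The signs of Kdm3a, Kdm4b and Jmjd6 held in the 8 alternative settings run within each line and in the 7 run for the mean effect. Their sizes did not always hold. In the P2 line the lowest value over the settings was 0.012 for Kdm3a and 0.071 for Kdm4b. The signs of these 3 members also held in the fits of these comparisons without a library.

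No paired analysis was possible because the groups share no replicate number. With 4 libraries a group the intervals set what was detectable. The lowest count of a member was 391, and the part of depth in these intervals was not tested. The genotype labels could not be checked on the targeted genes. Sorted libraries that also hold erythroid and macrophage transcripts mix the members' levels over cell types.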
